A study of Mus musculus with 24 samples.

Results

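The Toll-like receptor genes and their adaptors followed here are Tlr1, Tlr2, Tlr3, Tlr4, Tlr6, Tlr7, Tlr9 and Tlr13 together with the co-receptor gene Cd14 and the adaptor gene Myd88. They were chosen by mouse gene symbol, and they make up 10 of the 18647 genes in the count table. All 10 passed the filter on low counts, which kept 18153 genes. Their mRNA was read in microdissected hippocampal CA1 of adult C57Bl/6N mice that were at least 60 days old, in 24 libraries of polyA RNA. Mice of the status epilepticus (SE) groups received scopolamine methyl nitrate at 1 mg/kg and then pilocarpine hydrochloride at 335 mg/kg, and all of them developed SE. Control mice received saline in place of pilocarpine, and diazepam at 4 mg/kg was part of the treatment of both arms. The SE groups were taken either 6, 12, 24, 36 or 72 h after SE and the control (Ctr) groups at 12, 36 and 72 h, with 3 libraries in each of the 8 groups. No genotype other than the strain was given. The labels number the replicates without saying that each came from a separate mouse, so p-values measure the spread between these libraries.

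Toll-like receptors are membrane proteins that bind conserved microbial molecules and some molecules released by damaged cells. TLR1, TLR2, TLR4 and TLR6 act at the cell surface, TLR2 as a partner of TLR1 or TLR6, whereas TLR3, TLR7, TLR9 and TLR13 bind nucleic acids inside endosomes. CD14 hands ligands to TLR4 and TLR2. MYD88 carries the signal of all of these receptors except TLR3 to kinases that activate NF-kB, the transcription factor that drives many cytokine genes. In the brain, microglia are the main cells known to carry most of these receptors, and TLR3 is also known from astrocytes and neurons.

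Library totals ranged from 2663936 counts in Ctr 72 h replicate 3 to 30133731, and 1 count in that smallest library was worth 0.375 CPM, the unit used here for counts scaled to library size with TMM factors. The 3 libraries of Ctr 72 h stood apart on the factor of unwanted variation, with values of -0.394, 0.801 and -0.349 for replicates 1 to 3 against -0.0964 to 0.129 in the other 21 libraries, and all 72 h comparisons with controls rest on them. In Ctr 72 h replicate 2, markers of sensory ganglion (Prph, Avil, Scn10a and others, 7 genes) summed to 1596 CPM. The same sum was 301 to 853 CPM in 5 SE libraries, which were SE 6 h replicate 3, SE 12 h replicate 1, SE 36 h replicate 3 and SE 72 h replicates 1 and 2, and at most 63.7 CPM in the others. Where leaving out a Ctr 72 h library changed a call, the value without it is given with the result or among the limits. Markers of CA1 pyramidal cells were present in every library, with a sum of 356 to 1530 CPM over 4 genes. The lowest sum was that of SE 72 h replicate 1, where 3 markers of dentate granule cells summed to 229 CPM. In the other libraries the dentate sum was at most 92.2 CPM. At 72 h 2 of the 3 dentate markers were called higher, and their part in the receptor values was not tested. All 10 microglial markers were present as well, and their sum is given beside the receptor results.

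In control CA1 the genes differed widely in level. Per kilobase of exonic length, Tlr3 had the highest mean in every control group, at 2.66 CPM per kb ± 0.11 (SD, n = 3) in Ctr 12 h, 2.66 ± 0.51 in Ctr 36 h and 1.67 ± 0.42 in Ctr 72 h. In Ctr 72 h Myd88 at 1.56 ± 0.22 did not differ from it beyond the spread and was the higher of the pair in 2 of the 3 libraries. Over the 9 control libraries Myd88 followed at 1.35 CPM per kb ± 0.242 (SD), Cd14 at 1.00 ± 0.424 and Tlr7 at 0.718 ± 0.274. Tlr9 at 0.522 ± 0.222 and Tlr13 at 0.502 ± 0.213 lay next to each other and did not differ beyond their spread. The lowest mean levels were those of Tlr4 at 0.179 ± 0.0831, Tlr1 at 0.106 ± 0.0477 and Tlr2 at 0.0993 ± 0.0576 CPM per kb, with the last 2 again within their spread. Tlr6 had a mean of 0.289 ± 0.367 CPM per kb that rested on 1 library, since its median over the controls was 0.829 CPM and Ctr 72 h replicate 2 held 6.14 CPM. At this depth 8 of the 9 control libraries held fewer than 10 counts of Tlr1.

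The promoters of Tlr2 and Tlr13, which rose from 6 h on, and of Tlr9, which rose at 72 h, are shown as examples of an early and a late rise. Each run is the 250 bases before the start of the canonical GENCODE M39 transcript in GRCm39, written 5′ to 3′ on the strand of the gene. Tlr2 lies at chr3:83749075-83749324 (minus strand), Tlr13 at chrX:105186561-105186810 (plus strand, where the last base is the first base of another Tlr13 transcript) and Tlr9 at chr9:106099547-106099796 (plus strand). Capitals mark the letters GAGGAA, the core of sites bound by the myeloid factor PU.1, and TGANTCA, the AP-1 site, on either strand.
Tlr2: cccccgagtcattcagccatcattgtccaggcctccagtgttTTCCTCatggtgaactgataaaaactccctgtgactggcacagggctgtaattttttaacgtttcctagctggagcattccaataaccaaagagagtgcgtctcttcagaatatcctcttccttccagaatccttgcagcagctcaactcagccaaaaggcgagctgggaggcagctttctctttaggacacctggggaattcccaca
Tlr13: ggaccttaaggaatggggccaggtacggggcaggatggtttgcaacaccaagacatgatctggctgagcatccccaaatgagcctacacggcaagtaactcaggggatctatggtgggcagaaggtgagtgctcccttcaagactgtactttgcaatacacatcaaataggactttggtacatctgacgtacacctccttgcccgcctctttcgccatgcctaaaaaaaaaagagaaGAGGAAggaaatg
Tlr9: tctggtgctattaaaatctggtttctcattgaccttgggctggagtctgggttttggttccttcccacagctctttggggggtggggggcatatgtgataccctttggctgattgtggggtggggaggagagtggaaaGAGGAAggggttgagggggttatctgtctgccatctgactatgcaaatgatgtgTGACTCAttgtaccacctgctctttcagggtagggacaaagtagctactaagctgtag

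GAGGAA was found in the same window of 4 of the 9 members examined (Tlr2, Tlr4, Tlr9 and Tlr13) and in 23.2% of the 18552 promoters of the table. TGANTCA was found in Tlr9 alone of the 9 and in 5.22% of all promoters. A form of the NF-kB site (GGG, any 2 bases, TTTCC) was found in Tlr3 alone of the 9 and in 1.43% of all promoters. Other forms of the NF-kB site were not searched, so a window without this pattern may hold another form. The Tlr2 window does, since GGGAATTCCC stands unmarked near the end of its printed run. How many other promoters hold that form was not counted. The windows of Tlr3 and Tlr1 overlap exons of other transcripts of these genes. The core of the interferon-stimulated response element (GAAA, any 2 bases, GAAA, in 3.12% of all promoters) and a composite ETS and IRF site (GGAA, any 2 bases, GAAA, in 2.39%) were found in none of the 9. The last 2 patterns can overlap each other, and all were searched on both strands. The Tlr13 window holds GAGGAA from 13 to 8 bases before the start. In Tlr2 its complement lies from 208 to 203 bases before the start, and Tlr9 has GAGGAA from 112 to 107 and TGANTCA from 58 to 52 bases before it. These matches describe the letters only, and the promoter of Cd14 was not analysed here.

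Early and strong increases of mRNA after SE were the rule for these genes, with Tlr3, Tlr6 and Tlr9 as the exceptions at 6 and 12 h. A gene was called where the quasi-likelihood test of edgeR, adjusted over all genes by the Benjamini-Hochberg method, gave a p of at most 0.05 with a log2FC of 0.66 or more in either direction. At 6 h, set against the mean of the 3 control groups, 7 of the 10 genes were called higher and 0 lower, where 22% of all genes tested were called (15.8% higher, 6.2% lower). At 12 h against Ctr 12 h, 7 were higher and 1 was lower, against 25.3% of all genes called (13.9% higher, 11.4% lower). At 24 h against the mean of all controls, 8 were higher and 1 was lower, against 24.2% called overall (15% higher, 9.24% lower). At 36 h against Ctr 36 h, 9 were higher and 0 lower (21.7% of all genes called, 12.7% higher and 8.96% lower), and at 72 h against Ctr 72 h all 10 were higher (19.4% called, 15.2% higher and 4.15% lower). The comparisons at 6 and 24 h share all their control libraries with each other and with the time-matched comparisons.

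In order of time, the median log2FC of the 10 genes was 1.66, 1.77, 2.15, 2.44 and 3.27. Over all genes tested, the same median lay between 0.00 and 0.10. In CPM, every SE library lay above every control library compared for 6 of the 10 genes at 6 h (12.9% of all genes). The number was 7 both at 12 h (24.5%) and at 24 h (13.6%), and 9 both at 36 h (25.8%) and at 72 h (19.4%). Every SE library lay below every control for 0 of them at 6 h (9.27% of all genes), 24 h (10%), 36 h (26.2%) and 72 h (13.4%), and for Tlr3 alone at 12 h (23.2%). In these bulk samples, more cells that carry a receptor and more mRNA per cell cannot be told apart.

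**Figure D1:**
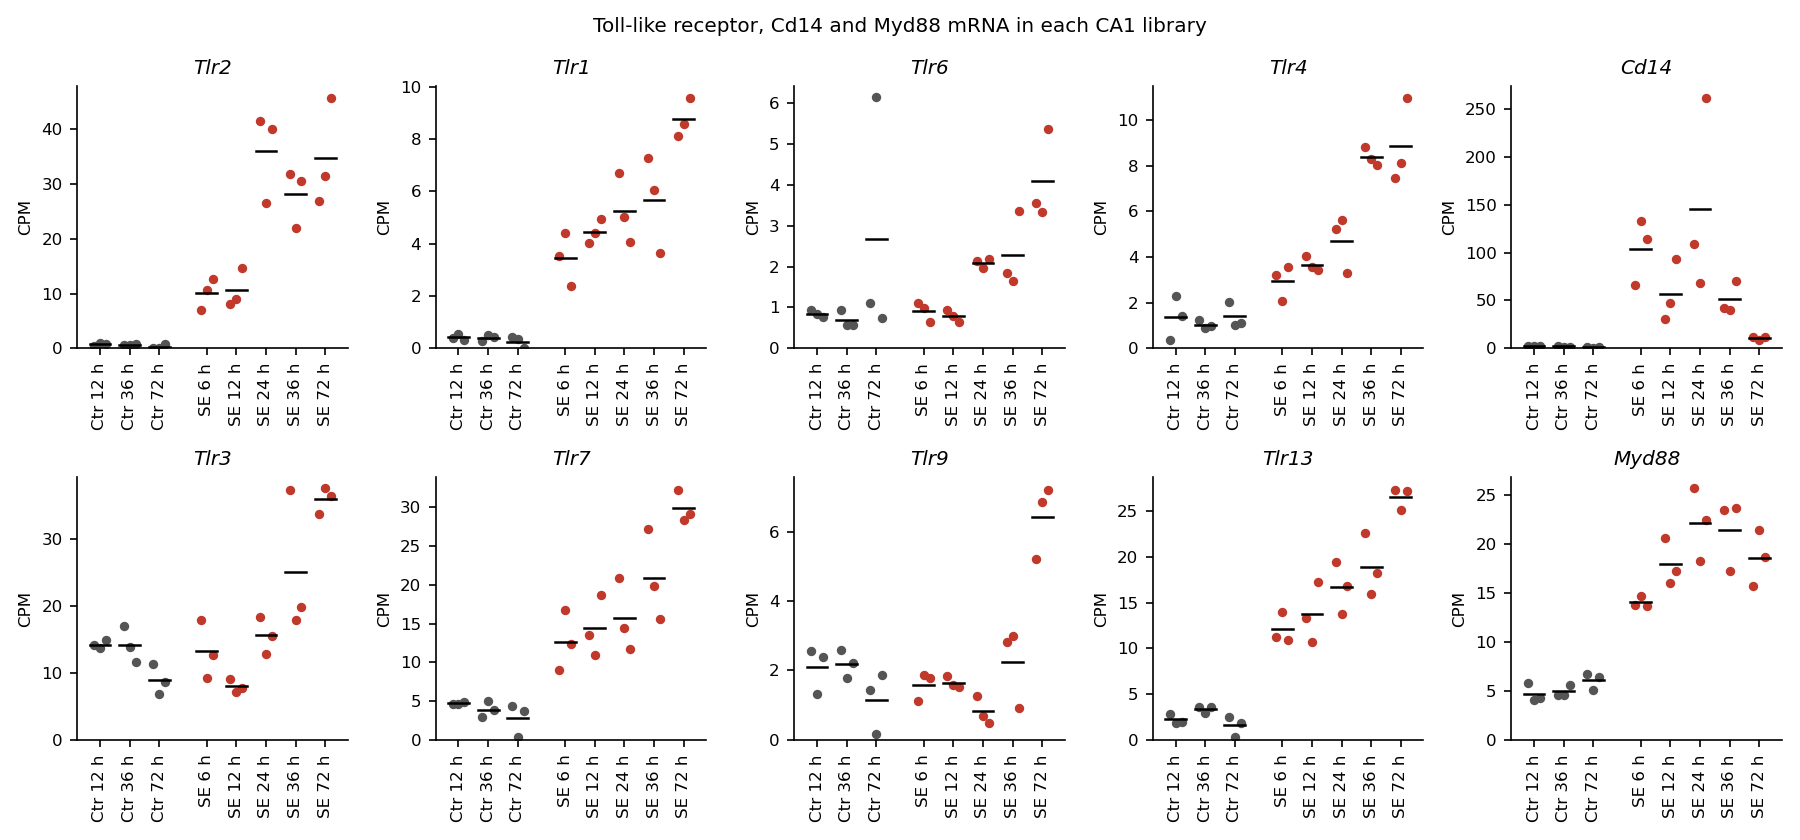
TMM-scaled CPM (y axis, linear, from 0, each gene on its own scale) of the 10 genes in each of the 24 libraries, by group (x axis), with control libraries in grey, SE libraries in red and the group mean as a black line. For Tlr2 the SE libraries lie between 7.03 and 45.7 CPM and the controls between 0 and 0.968, whereas Tlr6 has 1 control library at 6.14 CPM.

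Among the genes of the cell surface, Cd14 rose the most at 6 h and was the only one of the 10 called lower at 72 h than at 36 h. Cd14 encodes the lipid-anchored or soluble protein that presents bacterial lipopolysaccharide to TLR4. Its level was 0.171 to 2.59 CPM in the 9 control libraries. It stood at 65.7, 133 and 114 CPM at 6 h, 30.4, 47.0 and 93.4 CPM at 12 h, and 109, 68.5 and 261 CPM at 24 h. Then it stood at 42.5, 40.3 and 70.3 CPM at 36 h and at 11.6, 8.58 and 11.9 CPM at 72 h. Every SE library thus lay above every control, and the 72 h libraries lay below all those of the other SE times. In order from 6 to 72 h, the log2FC with its standard error was 6.03 ± 0.37, 4.61 ± 0.51, 6.54 ± 0.37, 4.72 ± 0.52 and 3.57 ± 0.70, with adjusted p by edgeR's quasi-likelihood test from 3.41e-11 at 24 h to 0.000706 at 72 h. Without SE 24 h replicate 3 the 24 h value was 5.83. The call at 72 h was lost with limma-voom (log2FC 3.33, adjusted p = 0.154).

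Between SE time points, where the threshold was an absolute log2FC of 1, Cd14 fell by 2.27 on the log2 scale from 36 to 72 h (edgeR, adjusted p = 0.00281). From 24 to 36 h its log2FC was -1.51, with an adjusted p of 0.0846. Its rise from 12 to 24 h (log2FC 1.41, edgeR, adjusted p = 0.0407) depended on single libraries. It was not called without SE 12 h replicate 1 (1.06), SE 12 h replicate 2 (1.31), and likewise without SE 24 h replicate 1 (1.59) or replicate 3 (0.68). The difference between 24 and 36 h passed with Ctr 72 h replicate 2 left out (log2FC -1.28, edgeR, adjusted p = 0.00831) and with SE 24 h replicate 2 left out (-1.84, adjusted p = 0.0342).

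Tlr2 mRNA went from near the detection limit to a level that stayed high through 72 h. TLR2 pairs with TLR1 or TLR6 to bind bacterial lipoproteins. The control libraries held 0.473, 0.968 and 0.696 CPM at 12 h, 0.575, 0.626 and 0.739 CPM at 36 h, and 0.0844, 0 and 0.750 CPM at 72 h. After SE the libraries held 7.03, 10.7 and 12.6 CPM at 6 h, 8.05, 9.08 and 14.6 CPM at 12 h, and 41.5, 26.5 and 40.1 CPM at 24 h. At 36 h they held 31.9, 21.99 and 30.6 CPM and at 72 h 26.9, 31.6 and 45.7 CPM. No SE library overlapped the controls, and none of the 24, 36 and 72 h libraries overlapped those of 6 and 12 h. From 6 to 36 h the log2FC was 4.65 ± 0.30, 3.82 ± 0.36, 6.48 ± 0.28 and 5.45 ± 0.38 in order (edgeR, highest adjusted p of the 4 values 2.55e-07).

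At 72 h the controls held only 3 counts of Tlr2 in all, against 1722 in the SE libraries. The ratio scaled for depth was 244, with a 95% counting interval of 83.4 to 1185 that covers counting error only. The step from 12 to 24 h was called (log2FC 1.80 ± 0.29, edgeR, adjusted p = 0.000953), and Tlr2 was the only gene of the 10 for which it was called under every omission of a single library. The gene lies at chr3:83743576-83749074 on the minus strand (GRCm39) and has 1 annotated exon stretch of 5499 bases.

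Tlr1, whose product is a partner of TLR2, rose at every time. Control libraries held 0 to 0.553 CPM. The SE libraries held 3.52, 4.41 and 2.38 CPM at 6 h, 4.03, 4.41 and 4.94 CPM at 12 h, 6.69, 5.01 and 4.06 CPM at 24 h, 7.26, 6.07 and 3.65 CPM at 36 h, and 8.11, 8.58 and 9.55 CPM at 72 h. Groups did not overlap between SE and control at any time, and the 72 h libraries were above all those of 36 h. In order from 6 to 72 h, the log2FC was 3.14 ± 0.28, 3.43 ± 0.37, 3.77 ± 0.27, 3.72 ± 0.37 and 4.75 ± 0.45 (edgeR, highest adjusted p 1.11e-06). No call was made for any of the steps between consecutive SE times of Tlr1, the largest being 0.65 from 36 to 72 h (adjusted p = 0.183).

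Tlr6, the other partner gene of Tlr2, did not share the early increase. In the SE libraries it stood at 1.12, 0.980 and 0.637 CPM at 6 h and 0.944, 0.796 and 0.637 CPM at 12 h, where the 8 control libraries other than Ctr 72 h replicate 2 held 0.574 to 1.097 CPM. It stood at 2.12, 1.96 and 2.17 CPM at 24 h, 1.85, 1.66 and 3.36 CPM at 36 h, and 3.55, 3.34 and 5.36 CPM at 72 h. At 6 and 12 h 1 SE library, at 1.12 CPM, was above those 8 controls, and the others lay within their range. The later libraries were all above them and below the 6.14 CPM of Ctr 72 h replicate 2. The log2FC was -0.18 ± 0.31 at 6 h (adjusted p = 0.687) and -0.08 ± 0.37 at 12 h (adjusted p = 0.993), and neither was called by edgeR.

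From 24 h on Tlr6 was called higher, with a log2FC of 1.01 ± 0.28 at 24 h (edgeR, adjusted p = 0.00639), 1.68 ± 0.36 at 36 h (adjusted p = 0.00138) and 1.22 ± 0.37 at 72 h (adjusted p = 0.0175). The 24 h call was lost without the factor of unwanted variation (0.83) and with a score of the sensory ganglion markers in its place (0.96). It was lost as well with the number range of the labels as a factor (0.75). The 24 and 36 h calls were lost when counts were thinned to the smallest library (0.89 and 0.85). The 72 h call was lost without SE 72 h replicate 3 (0.95), Ctr 72 h replicate 1 (0.82) or Ctr 72 h replicate 3 (0.80). It was also lost without the factor of unwanted variation (0.58, edgeR, adjusted p = 0.46), with the ganglion score in its place (0.72) and with limma-voom (1.04). The number range as a factor (1.05), thinned counts (1.14) and a fit of only the compared groups (1.23) lost it as well. With Ctr 72 h replicate 2 left out the log2FC was 2.05. The step from 12 to 24 h was also called (1.37 ± 0.35, edgeR, adjusted p = 0.0207), but not without SE 12 h replicate 2 (1.38), SE 12 h replicate 3 (1.24) or SE 24 h replicate 1 (1.35).

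Tlr4, which encodes the receptor for lipopolysaccharide, rose moderately at first and more by 36 h. It stood at 0.379 to 2.28 CPM in the 9 control libraries. The SE libraries had 3.20, 2.06 and 3.57 CPM at 6 h, 4.03, 3.55 and 3.43 CPM at 12 h, 5.20, 5.62 and 3.29 CPM at 24 h, 8.82, 8.28 and 8.03 CPM at 36 h, and 7.46, 8.11 and 10.96 CPM at 72 h. At 6 h 1 SE library lay within the control range, whereas from 12 h on all lay above it. The log2FC was 1.22 ± 0.30 at 6 h (edgeR, adjusted p = 0.00304), 1.40 ± 0.37 at 12 h (adjusted p = 0.00554), 1.88 ± 0.29 at 24 h, 3.02 ± 0.39 at 36 h and 2.58 ± 0.41 at 72 h, where the highest adjusted p of the last 3 was 9.25e-05. The calls at 6 and 12 h were lost when counts were thinned to the smallest library (adjusted p = 0.0521 and 0.0571), and that at 12 h also when only its own 2 groups were fitted (adjusted p = 0.0824).

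**Figure D2:**
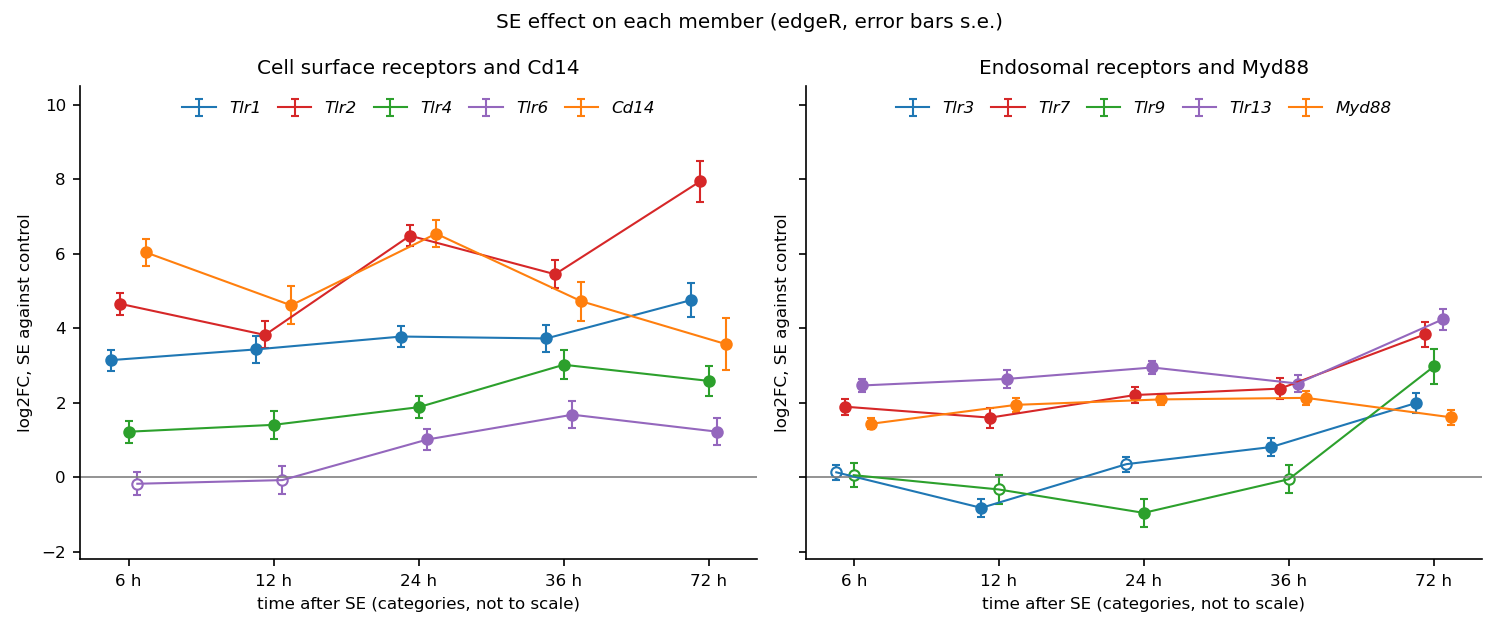
Log2FC of SE against control (y axis) by time after SE (x axis, categories), with bars for the standard error, filled points for called values and open points for values not called. Tlr2 ends highest at 72 h, Cd14 starts highest with 6.03 at 6 h and ends at 3.57, and Tlr6, Tlr3 and Tlr9 start near 0. The Tlr2 value at 72 h is fitted against controls with 3 counts in all and is no bound.

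The endosomal receptor genes split between a pair that rose from 6 h on and a pair that did not. Tlr13, whose product recognises bacterial ribosomal RNA, stood at 0.341 to 3.596 CPM in control libraries. It reached 11.3, 14.01 and 10.9 CPM at 6 h, 13.3, 10.7 and 17.2 CPM at 12 h, 19.4, 13.8 and 16.8 CPM at 24 h, 22.6, 15.9 and 18.3 CPM at 36 h, and 27.3, 25.2 and 27.2 CPM at 72 h. SE and control libraries did not overlap at any time. In order from 6 to 72 h, the log2FC was 2.46 ± 0.18, 2.64 ± 0.24, 2.94 ± 0.18, 2.51 ± 0.23 and 4.23 ± 0.28 (edgeR, highest adjusted p 1.27e-07). At 72 h the value was 3.499 without Ctr 72 h replicate 2 and 4.92 without replicate 1, and it was called in both cases. Tlr13 was also called lower in Ctr 72 h than in Ctr 36 h (log2FC -1.23, edgeR, adjusted p = 0.0347). Without Ctr 72 h replicate 2, where Tlr13 stood at 0.341 CPM, that control difference was -0.50 and was not called, nor was it called without Ctr 36 h replicate 1 (-1.17), 2 (-1.34) or 3 (-1.19).

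Tlr7, the gene of a receptor for single-stranded RNA, gave much the same picture at 4.64, 4.63 and 4.83 CPM in Ctr 12 h and 2.95, 4.96 and 3.78 CPM in Ctr 36 h. In Ctr 72 h it stood at 4.39, 0.341 and 3.75 CPM. The SE libraries had 8.95, 16.8 and 12.3 CPM at 6 h, 13.5, 10.9 and 18.6 CPM at 12 h, 20.9, 14.4 and 11.8 CPM at 24 h, 27.2, 19.8 and 15.6 CPM at 36 h, and 32.2, 28.3 and 29.2 CPM at 72 h. All SE libraries lay above all controls, and those of 72 h above all those of 36 h. In order from 6 to 72 h, the log2FC was 1.89 ± 0.22, 1.60 ± 0.27, 2.20 ± 0.21, 2.38 ± 0.28 and 3.83 ± 0.34 (edgeR, highest adjusted p 0.00014). The 72 h value was 2.84 without Ctr 72 h replicate 2, where Tlr7 stood at 0.341 CPM, and 4.50 without Ctr 72 h replicate 1, and it was called in both cases.

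Tlr3, the gene of the receptor for double-stranded RNA and the member with the highest control level, was lower at 12 h and higher at 36 and 72 h. Control libraries held 14.1, 13.7 and 14.8 CPM in Ctr 12 h, 17.05, 13.9 and 11.7 CPM in Ctr 36 h, and 11.3, 6.82 and 8.62 CPM in Ctr 72 h. SE libraries held 17.98, 9.31 and 12.7 CPM at 6 h, 9.05, 7.19 and 7.81 CPM at 12 h, 18.4, 12.8 and 15.6 CPM at 24 h, 37.3, 17.97 and 19.8 CPM at 36 h, and 33.7, 37.7 and 36.4 CPM at 72 h. All 12 h SE libraries lay below those of Ctr 12 h, and all libraries of SE 36 h and SE 72 h lay above their own controls. At 6 and 24 h the libraries overlapped the controls.

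The log2FC of Tlr3 was -0.83 ± 0.25 at 12 h (edgeR, adjusted p = 0.0129), 0.81 ± 0.24 at 36 h (adjusted p = 0.0154) and 1.99 ± 0.27 at 72 h (adjusted p = 1.18e-05). At 6 h it was 0.13 ± 0.20 (adjusted p = 0.646) and at 24 h 0.35 ± 0.20 (adjusted p = 0.174), neither of them called. The fall at 12 h did not pass with the number range of the labels as a factor (-0.72, adjusted p = 0.0563) or against the mean of all 3 control groups, where it was -0.60. The rise at 36 h was not called without SE 36 h replicate 1 (0.41), Ctr 36 h replicate 2 (0.79) or Ctr 36 h replicate 3 (0.69).

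Tlr9, the gene of the receptor for DNA rich in unmethylated CpG, rose only at 72 h among the 5 times. The control libraries held 2.56, 1.31 and 2.40 CPM in Ctr 12 h, 2.59, 1.77 and 2.22 CPM in Ctr 36 h, and 1.43, 0.171 and 1.87 CPM in Ctr 72 h. SE libraries held 1.12, 1.86 and 1.78 CPM at 6 h, 1.84, 1.59 and 1.51 CPM at 12 h, 1.27, 0.697 and 0.490 CPM at 24 h, 2.82, 3.00 and 0.912 CPM at 36 h, and 5.21, 6.87 and 7.21 CPM at 72 h. The 72 h libraries were above all other libraries, and the 24 h libraries were below all controls except Ctr 72 h replicate 2. The log2FC was 2.97 ± 0.47 at 72 h (edgeR, adjusted p = 8.64e-05), and at 6, 12 and 36 h it was 0.05, -0.33 and -0.06, none of them called. Without Ctr 72 h replicate 2, where Tlr9 held 1 count, the 72 h value was 2.01, and it was still called. At 24 h a fall was called (-0.96 ± 0.38, edgeR, adjusted p = 0.0468), but it was lost in 16 of 26 alternatives, among them the omission of SE 24 h replicate 2 (-0.87) or replicate 3 (-0.71), Ctr 12 h replicate 1 (-0.91) or 3 (-0.90), Ctr 36 h replicate 1 (-0.91) or 3 (-0.95), and Ctr 72 h replicate 1 (-0.84) or 3 (-0.79).

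Myd88, the adaptor gene, rose at every time. Control libraries held 4.08 to 6.75 CPM. The SE libraries held 13.7, 14.7 and 13.7 CPM at 6 h, 20.6, 16.04 and 17.2 CPM at 12 h, 25.7, 18.2 and 22.4 CPM at 24 h, 23.5, 17.3 and 23.6 CPM at 36 h, and 15.7, 21.5 and 18.6 CPM at 72 h. Every SE library lay above every control. In order from 6 to 72 h, the log2FC was 1.43 ± 0.14, 1.94 ± 0.19, 2.09 ± 0.14, 2.13 ± 0.19 and 1.61 ± 0.20 (edgeR, highest adjusted p 4.58e-06), and no step between consecutive SE times was called. Counting ignored the strand, and exons of Myd88 (chr9:119165000-119170486, minus strand, GRCm39) overlap exons of Acaa1a on the other strand. Reads in the shared stretch could not be told apart by strand and may affect the level of Myd88, in a direction that was not tested.

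The order of the genes by level was different after SE. Per kilobase, Cd14 was the highest of the 10 from 6 to 36 h, with means of 60.2 ± 20, 32.9 ± 19, 84.3 ± 59 and 29.5 ± 9.7 CPM per kb (SD, n = 3) in order, with Myd88 or Tlr2 next at 3.61 to 6.56. At 72 h Tlr3 at 6.72 ± 0.38, Tlr2 at 6.31 ± 1.8, Cd14 at 6.17 ± 1.1, Tlr7 at 5.65 ± 0.39 and Tlr13 at 5.61 ± 0.25 CPM per kb were close. Neighbours in that order did not differ beyond their SD. Tlr6 was the lowest at 0.84 ± 0.23 CPM per kb, followed by Tlr4 at 1.26 ± 0.27 and Tlr9 at 1.85 ± 0.31.

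Consecutive SE time points differed in few of these genes. From 6 to 12 h edgeR called 0 of the 10 genes (1.34% of all genes), with 2 at an unadjusted p under 0.05 and 0 by DESeq2 and limma-voom. From 12 to 24 h 3 genes were called higher, which were Tlr2, Tlr6 and Cd14 (3.2% of all genes called, 1.49% higher and 1.71% lower). The log2FC of Tlr3 for that step was 0.95 and its adjusted p 0.0226, just under the threshold of 1, and it was called once replicate 1 of SE 12 h (1.05) or replicate 2 of SE 24 h (1.08) was left out. From 24 to 36 h edgeR called 0 (0.545% of all genes), with 4 at an unadjusted p under 0.05, 1 by DESeq2 (Tlr9, 1.43) and 0 by limma-voom. From 36 to 72 h Tlr9 was higher (1.60 ± 0.38, edgeR, adjusted p = 0.0105) and Cd14 lower (4.18% of all genes called), and the Tlr9 call was lost without SE 36 h replicate 3 (1.12), where Tlr6 was called (1.26). The libraries of the later time lay wholly above those of the earlier for 1 of the 10 genes from 6 to 12 h (10.2% of all genes), 3 from 12 to 24 h (12.9%), 1 from 24 to 36 h (9.13%) and 4 from 36 to 72 h (17.3%), and wholly below for 1 (10.6%), 1 (10.7%), 0 (9.85%) and 1 (13.2%).

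Whether the SE effect itself differed between times was tested as the difference of the log2FC. Between 36 and 12 h only Tlr3 was called (difference 1.63 ± 0.35, edgeR, adjusted p = 0.0158), where 3.35% of all genes were called, and it was lost without Ctr 36 h replicate 3 (1.51). Without Ctr 72 h replicate 2, 3 genes were called, since Tlr2 (1.63, adjusted p = 0.0312) and Tlr6 (1.80, adjusted p = 0.0437) passed as well. Tlr6 also passed without SE 36 h replicate 2 (1.95), and Tlr4 without Ctr 12 h replicate 1 (1.99). Between 72 and 12 h 5 genes had a larger effect at 72 h, namely Tlr2 (4.12), Tlr9 (3.30), Tlr3 (2.82), Tlr7 (2.24) and Tlr13 (1.60), against 18.6% of all genes called (12.4% higher). Their highest adjusted p by edgeR was 0.00542. In Ctr 72 h against Ctr 12 h these genes had a log2FC of -2.40, -1.39, -0.66, -1.17 and -0.64 in that order, none called. These control values are part of the differences. Between 72 and 36 h Tlr9 (3.03) and Tlr13 (1.72) were called, against 4.8% of all genes.

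Without Ctr 72 h replicate 2 the difference of Tlr13 was 0.87 for 72 against 12 h, that of Tlr13 was 0.99 and that of Tlr9 1.99 for 72 against 36 h, and none of the 3 was called. For 72 against 12 h the same omission gave 1.25 for Tlr7 (edgeR, adjusted p = 0.049), 2.35 for Tlr9 (adjusted p = 0.0158) and 3.44 for Tlr2 (adjusted p = 0.0016), which were called, and Tlr6 was called too (2.12, adjusted p = 0.0147). For 72 against 12 h Tlr4 was called without Ctr 12 h replicate 1 (1.56). Leaving out another Ctr 72 h library also moved the differences of Tlr2, Tlr7 and Tlr13, by more than 1.5 times on the linear fold scale. The values that follow are on the log2 scale. For 72 against 12 h Tlr2 was at 3.33 without replicate 1 and 5.43 without replicate 3, Tlr7 at 2.90 and Tlr13 at 2.29 without replicate 1, and for 72 against 36 h Tlr13 at 2.41 without replicate 1. Among the controls alone, edgeR called 0 of the 10 genes between Ctr 36 h and Ctr 12 h (0% of all genes, 1 of the 10 at an unadjusted p under 0.05, 0 by DESeq2 and limma-voom). It called 0 between Ctr 72 h and Ctr 12 h (1.03% of all genes, 5 of the 10 at an unadjusted p under 0.05, 0 by DESeq2 and limma-voom). Between Ctr 72 h and Ctr 36 h 1 gene was called, Tlr13 (1.97% of all genes). Without Ctr 72 h replicate 3, Tlr2 (-3.70) and Tlr6 (1.51) were called between Ctr 72 h and Ctr 12 h and Tlr6 (1.78) between Ctr 72 h and Ctr 36 h. Without Ctr 72 h replicate 1, Tlr7 (-1.84) was called in the first and Tlr6 (1.77) and Tlr13 (-1.92) in the second of these comparisons. The median log2FC of the 10 genes was -0.09, -0.65 and -0.78 in these 3 comparisons.

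Of the other genes of the pathway, 63 of a list of 67 were in the table and all 63 were tested. They were called higher and lower in 22 and 2 cases at 6 h, 25 and 0 at 12 h, 32 and 1 at 24 h, 24 and 1 at 36 h, and 25 and 0 at 72 h. Beside these stand the shares of all genes called higher in order of time, 15.8%, 13.9%, 15%, 12.7% and 15.2%, and lower, 6.2%, 11.4%, 9.24%, 8.96% and 4.15%, which are also the background of each group of genes that follows. The median log2FC of the 63 genes was 0.42, 0.57, 0.87, 0.61 and 1.103 at these times. At 12 h the count was 12 when counts were thinned to the smallest library. Tlr5 and Tlr12, the other receptors in the table, were not called at any time and held at most 1.15 and 3.82 CPM in any library.

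Of the 9 accessory and trafficking genes, 1 was higher and 1 lower at 6 h, and 1, 4, 3 and 2 were higher at the later times. Counts of 1 or 2 among 9 genes are near the shares of all genes called higher. Ly96, the gene of the TLR4 partner MD-2, was higher at 6, 12, 24 and 36 h (log2FC 1.25, 1.73, 1.52 and 1.82, edgeR, highest adjusted p 0.018), and at 72 h its log2FC of 1.64 had an adjusted p of 0.054. Unc93b1, which carries endosomal receptors out of the endoplasmic reticulum, was lower at 6 h (-0.74) and higher at 72 h (1.76). Lgmn, a protease of the endosome, was higher at 24, 36 and 72 h (1.26, 1.80 and 2.06).

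Among the 18 other adaptors and proximal kinases, 7, 3, 7, 5 and 7 were higher at the 5 times in order, and Sarm1 was lower at 36 h (-0.66). Tirap, which links TLR2 and TLR4 to MYD88, was higher at all 5 times with a log2FC of 2.04, 1.72, 1.74, 1.66 and 1.56. The kinase genes Irak4 (0.67 to 1.72) and Ripk1 (1.03 to 1.48) were also higher at all 5. Ticam1, the adaptor gene of TLR3, was called at 6, 24 and 72 h (0.92, 0.87 and 1.59), and Ticam2, the bridging adaptor of TLR4, was higher at 24 h (1.64), 36 h (1.75) and 72 h (4.79), where its controls held 0 to 4 counts. Pik3ap1, another adaptor gene, was higher at 6, 24, 36 and 72 h (1.38, 2.35, 2.85 and 4.15). No call was made for Traf6, Traf3, Irak1 or Tbk1 at any of the 5 times.

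Of the 8 genes of transcription factors and the IKK complex, 2, 3, 4, 2 and 3 were higher in order of time, and Ikbkg was lower at 6 h (-0.69). Rela was higher at 6, 12 and 24 h (1.26, 1.19 and 0.99), and Irf7, a target and mediator of interferon signals, at 24, 36 and 72 h (3.17, 3.87 and 4.30). Of the 11 negative regulators, 6, 8, 7, 6 and 4 were higher and 0 lower. Irak3, which blocks signalling at the receptor, was higher at all 5 times (1.95, 2.29, 1.82, 1.59 and 1.51). Atf3 was higher at 6 to 36 h (4.94, 5.75, 4.28 and 2.74) and at 72 h had a log2FC of 0.97 with an adjusted p of 0.32, while Cd180 rose from 12 h on (1.46, 3.34, 4.63 and 4.80).

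Of the 9 genes of endogenous ligands, 0 were called at 6 h, with 1 at an unadjusted p under 0.05, and 4 were higher at each later time. Tnc, an extracellular matrix protein known to bind TLR4, was higher from 12 h on (2.85, 5.18, 3.66 and 2.34), and Bgn, a matrix proteoglycan, likewise (0.77 at 12 h, 1.55 at 24 h and 2.52 at 36 h, and called at 72 h too). S100a8, a calcium-binding protein of myeloid cells, was called at 12 h only, with 4 to 41 counts in the SE libraries and 0 in each Ctr 12 h library. Dcn was lower at 24 h (-1.80), and Hmgb1 was not called at any of the 5 times. All 6 cytokine and effector genes in the table were higher at 6, 12 and 24 h, 4 at 36 h and 5 at 72 h. Tnf held at most 1 count in any control library and 0.35 to 3.4 CPM in the SE libraries, and Cxcl10 at most 4 counts in a control library and 0.882 to 47.0 CPM after SE. Il6 held 0 counts in all SE 36 h libraries and at most 2 in those of 72 h.

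**Figure D3:**
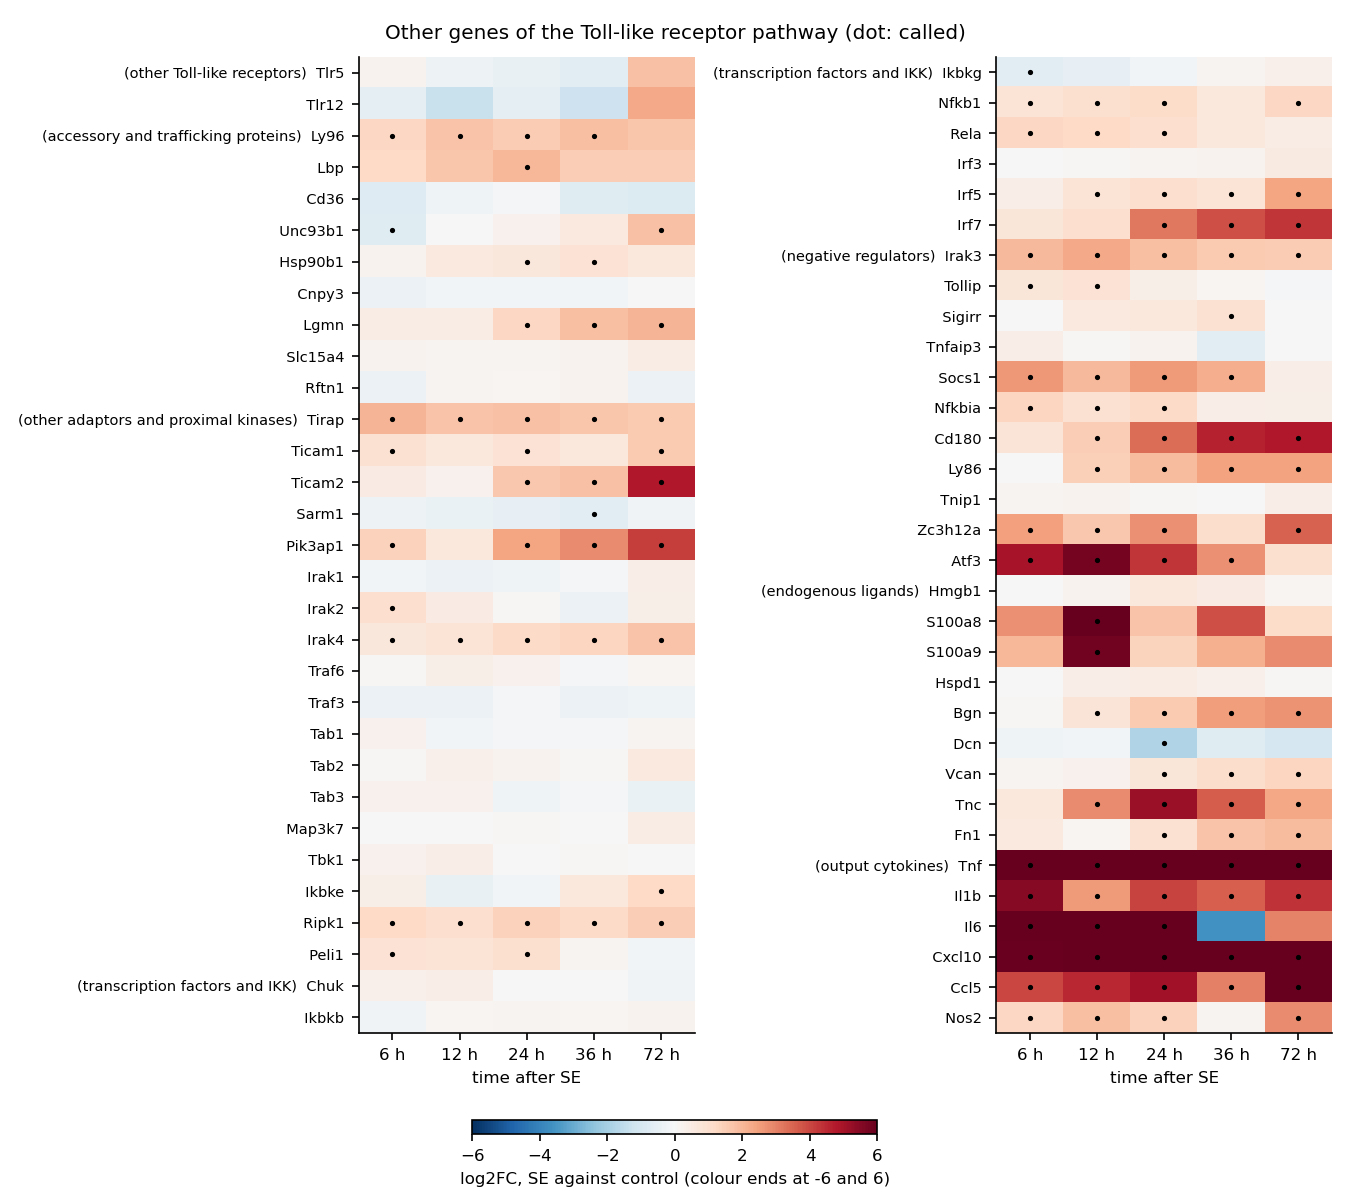
Log2FC of SE against control (colour, from -6 to 6, larger values shown at the end colour) for the 63 other pathway genes (rows, by list) at the 5 times after SE (columns), with a dot on called values; colours of genes with near 0 counts in a group, such as Il6, are fitted values. Tirap, Irak4, Ripk1 and Irak3 carry a dot at all 5 times, and Tlr5 and Tlr12 at none.

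In the median, markers of microglia rose beside the receptor and adaptor genes at late times and not at early ones. Single genes departed from this, since Tlr3, Tlr6 and Tlr9 were not called higher at 6 or 12 h. Cd14 was lower at 72 h than at 36 h. The sum of 10 markers (Aif1, Csf1r, Cx3cr1, Tmem119, P2ry12 and others) was 396 to 492 CPM in the controls and 301 to 356 CPM at 6 h. It was 332 to 479 CPM at 12 h, 626 to 853 CPM at 24 h, 870 to 979 CPM at 36 h and 1873 to 2675 CPM at 72 h. Called higher and lower were 0 and 5 of these markers at 6 h, 1 and 2 at 12 h, 5 and 1 at 24 h, 7 and 1 at 36 h, and 10 and 0 at 72 h. Their median log2FC was -0.41, 0.05, 0.62, 0.88 and 2.32, beside 1.66, 1.77, 2.15, 2.44 and 3.27 for the receptor and adaptor genes. At 6 h the log2FC was -0.68 for Csf1r, -0.98 for Cx3cr1 and -3.55 for P2ry12, beside the median of -0.41 for the 10 markers. The part of microglial number in the receptor values was not tested.

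Markers of endothelial cells (Cldn5, Pecam1, Flt1, Cdh5 and Tek) were higher beside the receptors at the early times too, and their sum lay above that of every control library at all 5 times. Their sum was 143 to 200 CPM in the controls, 299 to 345 CPM at 6 h, 253 to 370 CPM at 12 h and 345 to 381 CPM at 24 h, and then 261 to 338 CPM at 36 h and 235 to 257 CPM at 72 h. Of the 5 markers, 3 were called higher and 1 lower at 6 h, 3 higher at 12 h, 4 at 24 h, and 2 each at 36 and 72 h. Their part in the receptor values was not tested.

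**Figure D4:**
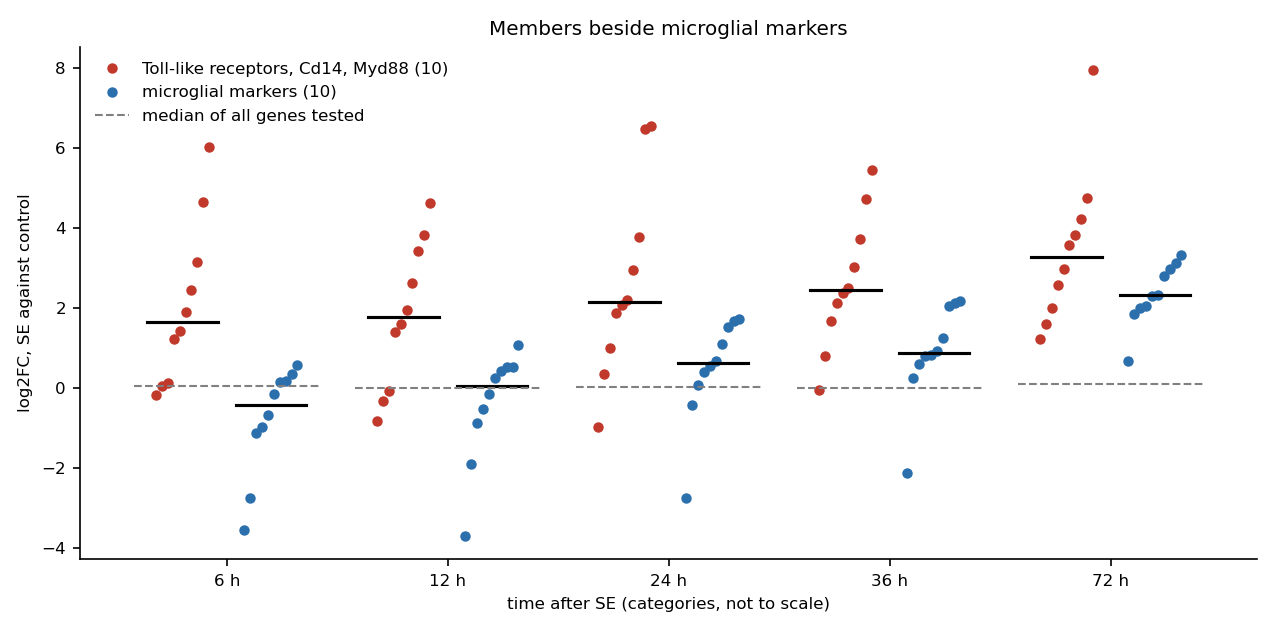
Log2FC of SE against control (y axis) at each time after SE (x axis, categories) for the 10 receptor and adaptor genes (red) and for 10 microglial markers (blue), each point 1 gene, with black lines for medians and dashed lines for the median of all genes tested. The microglial median goes from -0.41 at 6 h to 2.32 at 72 h and the median of the receptor and adaptor genes from 1.66 to 3.27.

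Blood cell markers were low outside SE 72 h replicate 1. The 2 monocyte markers in the table, Ccr2 and Chil3, summed to at most 1.57 CPM in the SE libraries of 6 to 36 h and to 37.0, 6.39 and 1.22 CPM at 72 h, where both were called higher, with Ccr2 also called higher at 6 and 36 h. In the controls they summed to at most 5.46 CPM, in Ctr 72 h replicate 2. The 37.0 CPM of SE 72 h replicate 1 lay above every receptor and adaptor gene in that library. Tlr3 was the highest of them there, at 33.7 CPM. The 4 neutrophil markers in the table summed to at most 4.26 CPM in any library. Of the 3 that were tested, 1 was called higher at 6 h, 2 at 24 h and 2 at 72 h, and 1 was called lower at 36 h (edgeR). The 2 lymphocyte markers in the table summed to at most 3.11 CPM. The part of blood cells in the receptor values was not tested. Ly6c2, Plac8, Elane, Ly6g, Cd3e and Cd3d were not analysed here. Astrocyte markers, given here because TLR3 is known from astrocytes, summed to 4623 to 5875 CPM in the controls, 6511 to 7172 CPM at 6 h, 6199 to 9052 CPM at 12 h and 5444 to 7213 CPM at 24 h, and then 6562 to 9104 CPM at 36 h and 12628 to 14230 CPM at 72 h. Gfap, 1 of these markers, reached 8779 CPM in a single library, so the sum can rise while most other markers fall. Of 7, the astrocyte markers were called higher and lower in 1 and 0 cases at 6 h, 2 and 1 at 12 h, 2 and 4 at 24 h, 3 and 4 at 36 h, and 3 and 0 at 72 h. Their median log2FC was -0.74 at 24 h, when Tlr3 was not called, and -0.72 at 36 h and 0.54 at 72 h, when Tlr3 was called higher. Their part in the Tlr3 values was not tested.

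Across the 24 libraries, log2 CPM of the members went together to different degrees, given here as a description of libraries that share groups and depth. Tlr13 followed Tlr7 (Pearson r = 0.959) and Tlr2 (r = 0.954), Tlr1 followed Tlr2 (r = 0.919), and Myd88 followed Tlr2 (r = 0.927). Tlr6 had r = 0.367 with Tlr2, and Tlr9 had r = 0.113 with Myd88. Among 13719 genes whose mean log2 CPM reached 1, the 3 patterns most like that of Tlr1 were those of Tgm1 (r = 0.98), C3ar1 (0.975) and Flnc (0.964), and for Tlr2 they were Cdt1 (0.971), Palld (0.966) and Csf2rb2 (0.964). Tlr7 had Casp8 (0.971) and Cd68 (0.971), and for Tlr13 they were Cd68 (0.967), Vav1 (0.967) and Irf8 (0.954). Cd14 had Myc (0.967), Ccl4 (0.953) and Slc6a8 (0.952), and Myd88 had Slc35f6 (0.966), P4hb (0.962) and Ms4a6d (0.958). Tlr4 had Ppp1r18 (0.944), Slc39a1 (0.922) and Calu (0.922), and Tlr3 had Qki (0.923), Kcnj10 (0.919) and Pald1 (0.899). Values were lower for Tlr6, with Ikbip (0.892), Lgals9 (0.885) and Capns1 (0.883), and for Tlr9, with Poll (0.856), Cyp4f14 (0.843) and Gm49980 (0.835). With the microglial marker Csf1r the correlation ran from 0.791 for Tlr3 to -0.173 for Cd14, with 0.691 for Tlr6, 0.573 for Tlr9 and 0.31 for Tlr2.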

How the data were processed

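Per the labels and the study's methods, the authors trimmed reads of a TruSeq polyA library with Trim Galore 0.6.6, aligned them to GRCm39 with STAR 2.7.8a, sorted them with SAMtools 1.10 and counted them per gene with HTSeq 0.13.5. The kit marks no strand. The deposited values are raw counts of reads per gene, without normalization. Genes with low counts were removed with filterByExpr, which left 18153 of 18647, and TMM factors were used. All 24 libraries were fitted with edgeR 4.0.16 (R 4.3.3), in a model of group means plus 1 RUVr factor, which captures unwanted variation from the residuals. Calls needed a Benjamini-Hochberg adjusted p up to 0.05 together with a log2FC of 0.66 or more in size (1 or more where SE times were compared). DESeq2 1.42.0 and limma 3.58.1 (voom), other scalings and filters, thinned counts and the omission of single libraries were alternatives. Scripts were tested on simulated data. Exonic lengths came from GENCODE M39, where 18552 genes matched and 95 did not. All 10 genes were named, with the 3 genes most like each by Pearson correlation of log2 CPM (1 of them is not reported here), beside genes of the pathway and marker lists. The members and lists were chosen with earlier results of these data known. Totals ranged from 2663936 to 30133731 counts, and intervals cover counting error only.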

Additional observations from a re-analysis of the deposited data

Results flagged for a closer look

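The difference of the SE effect between times was past the test for several of these genes by the quasi-likelihood test of edgeR, adjusted over all genes. For 36 against 12 h this was Tlr3 (1.63, log2 scale). For 72 against 12 h it was Tlr2 (4.12), Tlr9 (3.30), Tlr3 (2.82), Tlr7 (2.24) and Tlr13 (1.60). For 72 against 36 h it was Tlr9 (3.03) and Tlr13 (1.72). The lower levels of these genes in Ctr 72 h are part of the 72 h differences, and the Ctr 72 h libraries held 3 counts of Tlr2 in all. All 3 libraries of Ctr 72 h carry sample numbers of a range that few other libraries share, so that number range and Ctr 72 h can be told apart only in part.

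Among the 9 control libraries, 3 values lay far from the rest. Tlr1 was at 0 CPM in Ctr 72 h replicate 3, the library with the fewest counts. Tlr6 was at 6.14 CPM and Tlr7 at 0.341 CPM in Ctr 72 h replicate 2, the library with 1596 CPM of sensory ganglion markers. Chance gives such a gap in about 1 in 20 groups, and all 10 genes were examined. The part of depth and of the ganglion markers in these values was not tested.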

How the results depend on the processing

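Over 150 pairs of gene and comparison, 3162 of 3280 alternative values kept their side of the threshold, 82 lost a call and 36 gained one. Of values called in either setting, 0 reversed direction. A change of direction between values that were not called was counted as kept. Causes were not tested.

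The 12 h count of pathway genes (25) was 12 with thinned counts. Of the 10 genes, the 3 called from 12 to 24 h became 1 without the factor and with only the compared groups, and 1 to 4 with single libraries left out. From 24 to 36 h the 0 became 1 with DESeq2, with only the compared groups and with the replicate block, and 0 to 1 with libraries left out. From 36 to 72 h the 2 became 1 without the factor and with thinned counts. For the effect at 36 against 12 h the 1 became 4 with DESeq2, 0 with thinned counts and 0 to 3 with libraries left out. At 72 against 36 h the 2 became 0 without the factor, 4 with DESeq2, 1 with limma-voom, 1 with thinned counts, 1 with the ganglion score, 4 with the replicate block and 0 to 4 with libraries left out. Between Ctr 72 h and Ctr 12 h the 0 became 0 to 2 with libraries left out. Between Ctr 72 h and Ctr 36 h the 1 became 0 without the factor, with limma-voom, number ranges, thinned counts and the ganglion score, and 0 to 2 with libraries left out.

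Deviations from the group mean had r from -0.201 to 0.181 in same-numbered SE and Ctr libraries and from -0.299 to 0.252 in the other pairs. With 3 libraries per group this check cannot show whether the numbers pair the samples. With the replicate block the Tlr9 fall at 24 h was -0.94 (edgeR, adjusted p = 0.0592).

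Calls gained when a single library was left out were, for 72 against 36 h, Tlr2 without Ctr 72 h replicate 3 (3.81), Tlr3 without SE 36 h replicate 1 (1.58) or Ctr 72 h replicate 1 (1.42), and Tlr7 without SE 36 h replicate 1 (1.66) or Ctr 72 h replicate 1 (2.13) or 3 (1.80). Depth limits Tlr1 and Tlr2 in Ctr 72 h, where 1 count is worth up to 0.375 CPM.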
